A study of Mus musculus with 15 samples.

Results

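Leukocytes leave the blood by rolling along, sticking to and crossing the endothelium, the cell layer that lines vessels, and 10 mouse genes that act in these steps were read here in liver and lung. They were picked by gene symbol, and all 10 were found among the 54532 genes of each tissue's table. In this sequence, selectins (Sele and Selp) catch leukocytes from the flow, ligands of leukocyte integrins (Icam1, Icam2 and Vcam1) hold them, and junction molecules (Pecam1, Cdh5, Cldn5, Esam and Jam2) seal the border between endothelial cells and form the route across it. The sinusoids of the liver are lined by an open, fenestrated endothelium, whereas the capillaries of the lung are lined by a closed one.

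The RNA came from wild type C57BL/6J mice, an inbred laboratory strain, that ate either a control diet (CS) or the same kind of diet with 2% phytosterols (PS), plant sterols that resemble cholesterol. The labels give 28 weeks as their age, although by the feeding times in the study's methods they were older than that at sampling. Frozen liver tissue of 4 CS and 5 PS mice and frozen lung tissue of 3 CS and 3 PS mice were sequenced with 1 library per mouse and tissue, and 6 mice gave both organs. The study asked how long-term phytosterol intake acts on the metabolism of each tissue, and it also looked at signs of inflammation in the liver. Total counts ran from 14410117 to 17625179 in the livers and from 17934930 to 19396057 in the lungs.

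Levels within a tissue are given as CPM, counts scaled to the depth of each library of that tissue. Levels of different genes are compared only per gene length, as FPKM (fragments scaled to gene length and to depth). A fold change is PS over CS or lung over liver, on the log2 scale and with its standard error (SE), from edgeR's quasi-likelihood test, and adjusted p-values are Benjamini-Hochberg values over all genes tested. A gene is called at an adjusted p under 0.05. In bulk tissue, fewer endothelial cells and less RNA of a gene per endothelial cell cannot be told apart. The tissue labels fitted their markers. The 4 hepatocyte markers summed to no more than 124 CPM in any lung, and the 6 markers of lung epithelium summed to no more than 54.9 CPM in any liver. The CS liver of replicate 2 stood apart from the others of its diet over all genes, and the liver values that it moves most are also given without it.

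RefSeq promoters (GRCm38.p6, 250 bases before the start of the gene and 50 after it) were found for 4 of the 10 genes. They are shown so that an abundant junction gene (Cldn5), an integrin ligand of inflamed endothelium (Icam1) and the 2 scarce selectins can be read side by side. The other 6 genes had no entry. All 4 lie on the plus strand, Cldn5 at chr16:18776597-18776896, Icam1 at chr9:21015690-21015989, Selp at chr1:164115014-164115313 and Sele at chr1:164047984-164048283. Capitals mark every match, on either strand, to the motifs searched.
Cldn5: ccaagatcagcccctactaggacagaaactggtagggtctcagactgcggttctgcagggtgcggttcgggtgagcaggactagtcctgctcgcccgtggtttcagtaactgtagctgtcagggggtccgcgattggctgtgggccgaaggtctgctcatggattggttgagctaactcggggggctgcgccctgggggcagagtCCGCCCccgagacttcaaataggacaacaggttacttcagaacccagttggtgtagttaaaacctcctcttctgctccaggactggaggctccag
Icam1: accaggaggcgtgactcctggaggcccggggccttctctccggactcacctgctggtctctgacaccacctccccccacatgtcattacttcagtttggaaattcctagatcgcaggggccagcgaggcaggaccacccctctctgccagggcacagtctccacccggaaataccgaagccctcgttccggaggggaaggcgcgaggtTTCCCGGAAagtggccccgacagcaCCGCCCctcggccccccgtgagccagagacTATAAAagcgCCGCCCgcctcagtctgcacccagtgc
Selp: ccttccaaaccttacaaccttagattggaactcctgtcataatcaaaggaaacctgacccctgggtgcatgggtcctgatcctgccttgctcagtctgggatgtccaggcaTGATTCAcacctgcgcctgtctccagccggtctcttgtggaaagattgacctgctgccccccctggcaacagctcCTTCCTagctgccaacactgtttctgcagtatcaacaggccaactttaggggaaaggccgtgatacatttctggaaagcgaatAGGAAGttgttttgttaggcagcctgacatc
Sele: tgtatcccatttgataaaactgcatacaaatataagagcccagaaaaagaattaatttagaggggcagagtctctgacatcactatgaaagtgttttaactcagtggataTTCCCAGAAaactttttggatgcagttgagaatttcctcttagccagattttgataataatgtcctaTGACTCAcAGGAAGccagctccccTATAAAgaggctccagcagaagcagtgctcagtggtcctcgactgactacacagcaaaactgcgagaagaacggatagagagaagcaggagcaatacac

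The motifs searched, on both strands, were those of factors that act on endothelial or inflammatory genes and of the core promoter. In the Sele promoter an AP-1 match (TGANTCA, in 7.81% of 32851 promoters of this length) began 73 bases before the start. An ETS match (AGGAAG, in 35.4%) began 65 bases before it. Sele also had the TATA box (TATAAA, in 13.6%) at 49 bases and a STAT match (TTCNNNGAA, in 8.3%) at 140 bases. Selp had an AP-1 match 139 bases before the start and ETS matches 64 bases before it, on the minus strand, and 20 bases into the gene. Icam1 had a STAT match 42 bases before the start, a pair of GC boxes on the minus strand (GGGCGG, in 35.7%) and a TATA box 14 bases into the RefSeq gene, which is 32 bases before the start that GENCODE gives. The Cldn5 promoter held only a GC box of the motifs searched, on the minus strand 45 bases before the start. No exact match to the NF-kappa B consensus (GGGRNWYYCC) lay in these 4 windows, where 4.51% of all promoters held it. Nor did the GATA motif (AGATAA, in 11.2%) or the other ETS motif (CGGAAG, in 16.9%). Sites that depart from a motif were not searched. Icam1 holds such a site, tggaaattcc, which departs from the NF-kappa B consensus in its first base. The nearest ETS matches of Sele and Selp began 1 base apart but on opposite strands, the STAT matches of Sele and Icam1 lay at different distances from the start, and no motif was shared by all 4.

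Per length, the tight junction protein Cldn5 was the most abundant of the 10 in the lung, it had the highest mean in the liver over both diets together, and the selectins were the scarcest in both tissues. In the liver, Cldn5 averaged 4.21 ± 2.47 FPKM (SD, n = 9), and Esam, an immunoglobulin-type junction protein, averaged 2.97 ± 1.12. Cldn5 was above Esam in 6 of 9 livers. It led in the CS livers, with means of 6.46 against 3.40 FPKM, but in the PS livers Esam had the higher mean, 2.62 against 2.40 FPKM. Cdh5, the cadherin of endothelial adherens junctions, followed at 2.38 and Pecam1 (CD31), which lies at the borders between endothelial cells, at 1.54 FPKM. Icam1 at 1.27, Jam2 at 1.18 and Vcam1 at 1.10 FPKM came next, ahead of Icam2 at 0.826 and Selp at 0.355. The ranges of all these neighbours overlapped, so most of this order was not set beyond the spread between livers. Cdh5 was nevertheless above Pecam1 in 9 of 9 livers, and Icam2 was above Selp in 9 of 9. Sele, the selectin that is typical of activated endothelium, had 1 count in all 9 livers together.

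In the lung the order was clearer. Cldn5 averaged 547 ± 137 FPKM (SD, n = 6), above Cdh5 at 183 ± 20.9 in every lung. Pecam1 at 127, Icam2 at 121 and Esam at 116 FPKM overlapped with each other. Icam1 lay below these at 59.1 ± 5.63 FPKM and did not overlap with them. Vcam1 at 11.5 and Jam2 at 11.4 FPKM could not be ordered, and each was above the other in 3 of 6 lungs. Selp at 0.476 and Sele at 0.268 FPKM were far below the rest. The FPKM values were scaled by tissue, so they are not compared between liver and lung.

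**Figure D1:**
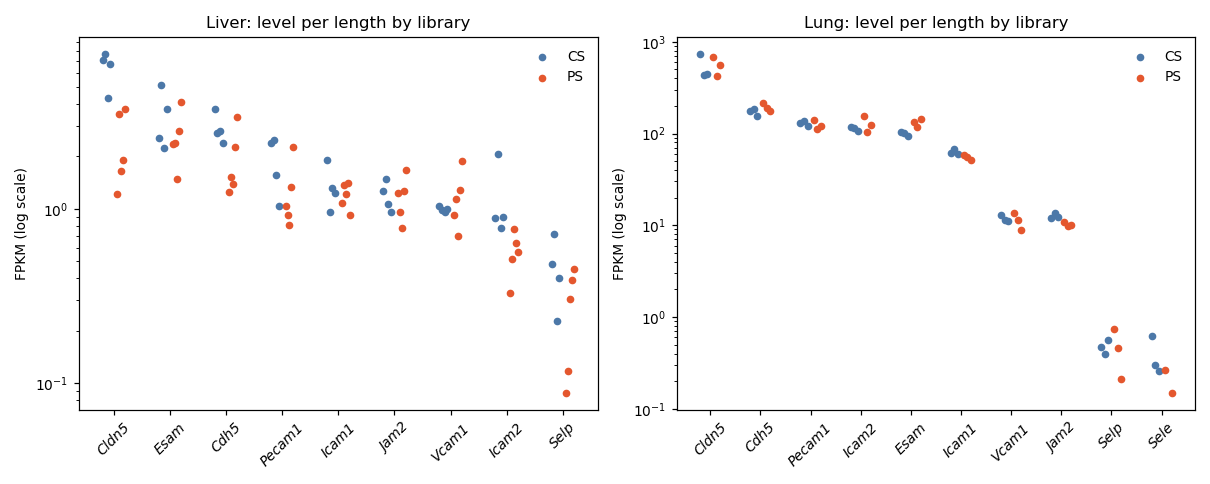
FPKM of each gene (log axis) in 9 livers (left) and 6 lungs (right), 1 point per library, CS in blue and PS in red, genes in order of their mean. Cldn5 had the highest mean in both tissues with the diets pooled, and the selectins came last; Sele is left out of the liver, where it had 1 count, and its lung library at 0 is not drawn.

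In the liver, no adhesion gene was called between the diets. Of the 9 genes that passed the filter on low counts, 0 were called, and 0.00758% of the 13195 genes tested were (1 gene). At the looser level of an unadjusted p of at most 0.05, 0 members were higher in PS livers and 2 were lower, Cldn5 and Icam2. In the same way 3.96% of all genes were higher and 3.58% lower. The estimates were below 0 for 8 of the 9 genes, against 53.9% of all genes, and their median was -0.56, against -0.03 over all genes. Without any 1 library the estimates were below 0 for 6 to 8 of the 9, the 6 without the CS liver of replicate 1 and 7 without that of replicate 2. Sele did not pass the filter.

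Cldn5 (chromosome 16, 18776847 to 18778262) had the lowest estimate. It was at 9.88, 10.8, 5.92 and 9.35 CPM in the CS livers and at 1.70, 4.83, 2.33, 2.64 and 5.24 CPM in the PS livers. Every PS liver was below every CS liver, as for 1.53% of all genes tested. The log2 fold change was -1.42 (SE 0.35, unadjusted p = 0.0016), or 2.68-fold lower, with an adjusted p of 0.232. Without any 1 library it ran from -1.64 to -1.26 and was not called. DESeq2's Wald test did call it, at -1.43 with an adjusted p of 0.0128.

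Icam2 (chromosome 11, 106377656 to 106388075), a ligand of leukocyte integrins that resting endothelium carries, was at 1.66, 3.91, 1.45 and 1.67 CPM in the CS livers. In the PS livers it was at 0.618, 0.966, 1.46, 1.18 and 1.06 CPM. The groups overlapped, and the highest value came from the CS liver of replicate 2. The log2 fold change was -1.02 (SE 0.40, unadjusted p = 0.0275, adjusted p = 0.572). Without that liver it was -0.58, with an adjusted p of 0.484. The study itself reported less Icam2 RNA and significantly less ICAM2 protein in the livers of PS mice. The choice of this gene was therefore not independent of these samples.

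The 2 other integrin ligands, which endothelium makes more of under inflammatory cytokines, gave smaller estimates. Icam1 was at 8.17, 4.18, 5.57 and 5.25 CPM in the CS livers and at 4.64, 5.85, 5.31, 5.96 and 3.98 CPM in the PS livers. The diets overlapped almost fully, with a log2 fold change of -0.17 (SE 0.25, 95% interval -0.66 to 0.32). It turned to 0.04 without the CS liver of replicate 1 and was -0.30 without that of replicate 2. Vcam1, the ligand of the integrin VLA-4, was at 8.99, 8.76, 8.30 and 8.71 CPM in the CS livers, a narrow range. It was at 8.03, 9.95, 6.24, 11.1 and 16.6 CPM in the PS livers, on both sides of that range. Its log2 fold change was 0.26 (SE 0.26), the only one above 0 in the liver. Without the PS liver of replicate 5, which was the highest, it was 0.02.

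Pecam1 and Cdh5 had nearly equal estimates. Pecam1 was at 14.6, 15.4, 9.52 and 6.34 CPM in the CS livers and at 6.41, 5.63, 5.01, 8.09 and 13.9 CPM in the PS livers. Cdh5 was at 15.3, 11.4, 11.4 and 9.73 CPM in the CS livers and at 5.18, 6.31, 5.83, 9.21 and 13.99 CPM in the PS livers. In both genes 4 PS livers lay below the 3 highest CS livers, and the PS liver of replicate 5 lay among the CS livers. The log2 fold changes were -0.56 (SE 0.35) for Pecam1 and -0.56 (SE 0.30) for Cdh5, with adjusted p-values of 0.766 and 0.716. Without the CS liver of replicate 2 Pecam1 was at -0.39. Without the PS liver of replicate 5 the log2 fold changes were -0.87 for Pecam1 and -0.85 for Cdh5, and 4 members were then lower at an unadjusted p of at most 0.05 instead of 2.

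Esam was at 7.17, 14.6, 6.27 and 10.4 CPM in the CS livers and at 6.64, 6.71, 4.26, 7.75 and 11.7 CPM in the PS livers. Jam2, a junctional adhesion molecule, was at 7.45, 8.89, 6.27 and 5.70 CPM in the CS livers and at 7.34, 5.68, 4.72, 7.42 and 9.95 CPM in the PS livers. Both overlapped widely, with log2 fold changes of -0.37 (SE 0.32) for Esam and -0.01 (SE 0.25, 95% interval -0.51 to 0.48) for Jam2. Selp, which is kept in granules of endothelial cells and platelets, was at 2.10, 3.17, 0.987 and 1.73 CPM in the CS livers. It was at 0.386, 0.512, 1.34, 1.69 and 1.99 CPM in the PS livers. Its log2 fold change was -0.74 (SE 0.52, adjusted p = 0.815), and with 5 to 47 counts per liver its interval ran from -1.76 to 0.27. Without the CS liver of replicate 2 the log2 fold change was -0.10 for Esam and -0.43 for Selp, and that of Jam2 ran from -0.17 to 0.11 without any 1 library.

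**Figure D2:**
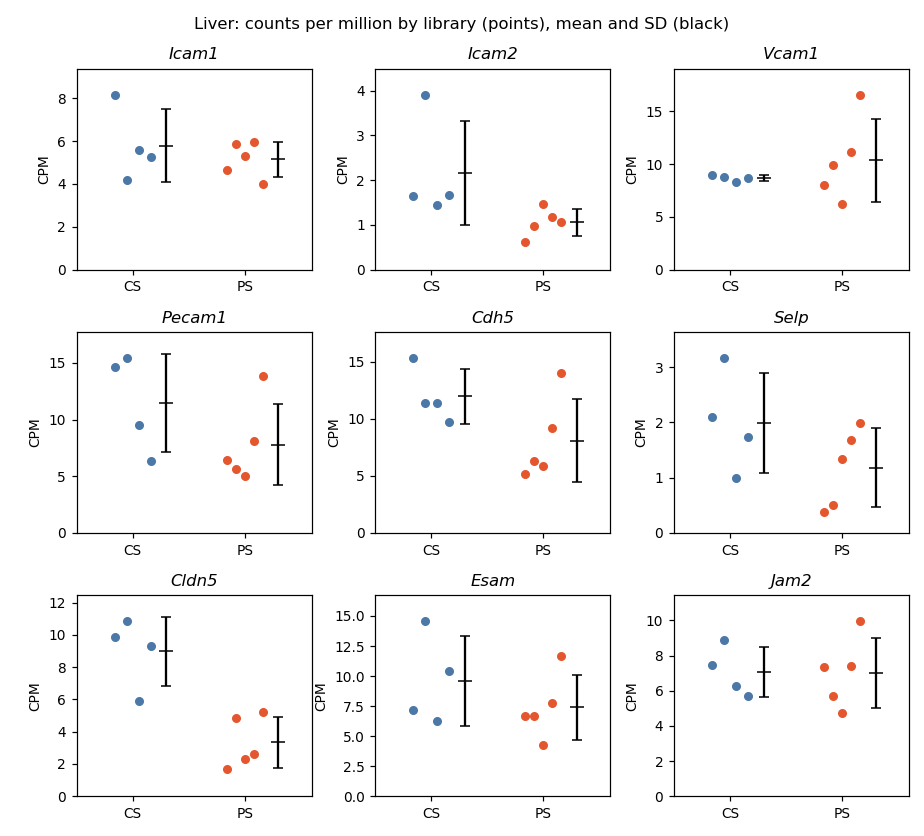
CPM of 9 members in each liver library (points; 4 CS in blue, 5 PS in red), with the mean and SD of each diet in black; axes start at 0. Cldn5 is the only panel in which the diets do not overlap, and in Icam2 the CS liver of replicate 2, at 3.91 CPM, stands away from the other 3.

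The estimates of endothelial markers lay on the same side. All 12 endothelial markers fixed for the comparison had estimates below 0 in PS livers, their median being -0.48 on the log2 scale, and 0 were called. Their summed level ran from 119 to 257 CPM in the CS livers and from 90.6 to 150 CPM in the PS livers, with none of the 12 at 0. The CS liver of replicate 2 was at 257 CPM, and the other 3 CS livers, at 119 to 139.9 CPM, lay within the range of the PS livers. Leukocyte markers summed to 139 to 215 CPM in the CS livers and 57.4 to 158 CPM in the PS livers. The neutrophil marker Ly6g was at 0 in all livers, and no CS liver but that of replicate 2 was above 168 CPM. The PS liver of replicate 5, at 158 CPM, lay among the CS livers. The other PS livers, at 57.4 to 108 CPM, lay below all CS livers. The part of these shifts in the members' estimates was not tested beyond the following.

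Each member was set against the mean log2 level of the 12 endothelial markers in the same library, and the difference between diets was examined by two-sided exact permutation of the libraries. Relative to the markers, Jam2 was higher in PS livers by 0.46 log2 units, from -0.05 ± 0.17 in CS to 0.41 ± 0.14 in PS, without overlap. Its unadjusted exact p of 0.00794 is the smallest that 4 against 5 libraries can give. Vcam1 was higher by 0.68 log2 units, also without overlap (exact permutation p = 0.0159). Cldn5 was lower by 0.99 log2 units (exact permutation p = 0.0317), with some overlap. Its p stayed under 0.05 without the PS liver of replicate 2 but passed 0.05 without any other 1 library, while those of Jam2 and Vcam1 stayed under 0.05 without any 1 library. Over all genes, 19.7% were higher relative to the markers at an exact p of at most 0.05 and 0.152% were lower, so a count of 2 higher members was near the background. Of the other genes, Icam2 was at -0.40, Icam1 at 0.36, Selp at -0.32, Cdh5 at -0.14, Esam at 0.13 and Pecam1 at -0.06. Their exact permutation p-values ran from 0.230 to 0.825. The p-values are not adjusted for the 10 genes examined, since these were chosen with results of these data known. Sele is not read on this scale, where its liver value is set by the pseudocount.

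In the lung, no adhesion gene was called between the diets either, although 9.22% of the 16717 genes tested were. At an unadjusted p of at most 0.05, 1 member was higher in PS lungs (Esam) and 1 was lower (Jam2). The same level held for 15.6% of all genes on the higher side and 14.5% on the lower side. The estimates were above 0 for 4 genes and below 0 for 6, against 49.6% of all genes below 0, with a median of -0.05, against 0.01 over all genes. The diets did not overlap for 3 genes, with Icam1 and Jam2 lower in PS lungs and Esam higher. Over all genes 18.8% lay wholly below and 17.3% wholly above, so the members' share was close to the background.

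Esam (chromosome 9, 37528078 to 37538319) was at 297, 286 and 269 CPM in the CS lungs and at 378, 333 and 419 CPM in the PS lungs. Its log2 fold change was 0.41 (SE 0.15, unadjusted p = 0.0272, adjusted p = 0.116). DESeq2's Wald test called it, with an adjusted p of 0.0447. After removal of each library's trend with GC content it was 0.32, with an unadjusted p of 0.0607, and without any 1 library it ran from 0.32 to 0.49. Jam2 (chromosome 16, 84774123 to 84825928) went the other way, at 72.1, 81.4 and 74.4 CPM in the CS lungs and 64.02, 57.8 and 61.0 CPM in the PS lungs. The log2 fold change was -0.32 (SE 0.13, unadjusted p = 0.0363, adjusted p = 0.136), and -0.20 without the GC trends. Without any 1 library it ran from -0.38 to -0.28.

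Icam1 was at 266, 296 and 261 CPM in the CS lungs and 251, 240 and 226 CPM in the PS lungs. The PS lungs lay below the CS lungs, with a log2 fold change of -0.20 (SE 0.14, adjusted p = 0.374), which was not called. Icam2 was at 223, 220 and 206 CPM in the CS lungs and 291, 198 and 239 CPM in the PS lungs, so the PS lungs lay on both sides of the CS lungs. Vcam1 was at 114, 102 and 98.0 CPM in the CS lungs and 118, 98.7 and 78.6 CPM in the PS lungs. Neither ligand differed beyond its spread, with log2 fold changes of 0.17 (SE 0.17) for Icam2 and -0.09 (SE 0.17) for Vcam1. Without any 1 lung these ran from 0.01 to 0.30 for Icam2 and from -0.25 to 0.05 for Vcam1.

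Among the remaining junction genes, Pecam1 was at 814, 849 and 759 CPM in the CS lungs and 865, 696 and 753 CPM in the PS lungs. Cdh5 was at 736, 783 and 653 CPM in the CS lungs and 902, 792 and 738 CPM in the PS lungs. Both overlapped, with log2 fold changes of -0.07 (SE 0.17) for Pecam1 and 0.16 (SE 0.17) for Cdh5. Cldn5, whose diets did not overlap in the liver, was not called there. In the lung it was at 1031, 616 and 625.5 CPM in the CS lungs and 965, 590 and 803 CPM in the PS lungs. Its diets overlapped widely in the lung, with a log2 fold change of 0.05 (SE 0.26, 95% interval -0.46 to 0.57). The estimate turned to -0.21 without the GC trends and ran from -0.13 to 0.31 without any 1 lung.

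The selectins were scarce in the lung too. Sele had 36, 17 and 14 counts in the CS lungs and 13, 0 and 8 counts in the PS lungs. All 3 PS lungs had fewer counts than the CS lungs, but once scaled the highest PS lung, at 0.769 CPM, was just above the lowest CS lung, at 0.760 CPM. The log2 fold change of -1.51 had an SE of 0.83 and an adjusted p of 0.25, and it was -0.93 without the PS lung of replicate 2 and -2.35 without that of replicate 1. Selp was at 2.07, 1.75 and 2.50 CPM in the CS lungs and 3.25, 2.01 and 0.938 CPM in the PS lungs, a wider range on PS around the same middle. Its log2 fold change of -0.03 (SE 0.45) had no settled sign, at -0.52 without the PS lung of replicate 1 and 0.32 without that of replicate 3.

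**Figure D3:**
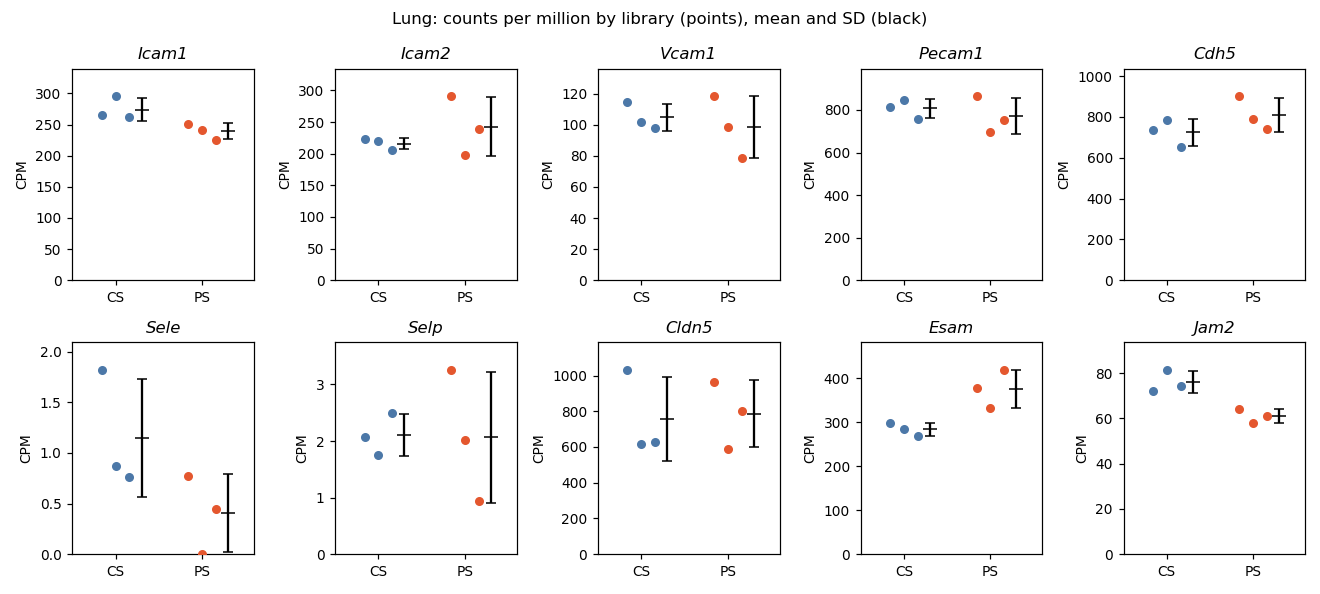
CPM of the 10 members in each lung library (points; 3 CS in blue, 3 PS in red), with the mean and SD of each diet in black; axes start at 0. The diets are apart in Esam (PS higher) and in Icam1 and Jam2 (PS lower), and they overlap in the other 7 panels.

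The endothelial markers did not share 1 direction in the lung. Of the 12, estimates were above 0 for 8 and below 0 for 4. Robo4, a guidance receptor of endothelium, rose by a log2 fold change of 0.89 (SE 0.16, adjusted p = 0.0217) and Ramp2, a subunit of the adrenomedullin receptor, by 0.79 (SE 0.16, adjusted p = 0.0307). Kdr, the main VEGF receptor, fell by 0.95 on the log2 scale (SE 0.23, adjusted p = 0.0412). These 3 of the 12 were called, against 9.22% of all genes. All 3 calls were lost without any 1 of the CS lungs or without the PS lung of replicate 2, with the same signs and adjusted p-values up to 0.128. The summed level was 4207 to 4826 CPM in the CS lungs and 5034 to 5799 CPM in the PS lungs, with none of the 12 at 0, so the markers themselves were apart between the diets. Against them, Jam2 was lower in PS lungs by 0.50 log2 units, Icam1 by 0.38, Vcam1 by 0.29 and Pecam1 by 0.26, and Esam was higher by 0.22, all 5 without overlap. Sele, at -1.88, was apart as well, but 1 of its PS lungs had 0 counts, so the size of that value depends on the pseudocount. The exact permutation p was 0.1 for each, the smallest that 3 against 3 can give. On this scale 30.5% of all genes lay wholly below in PS lungs and 6.79% wholly above.

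Whether the diet acted differently on these genes in lung and liver was tested in a fit of all 15 libraries. The difference, lung minus liver, was called for 0 members and for 0.0226% of 17696 genes. Only Cldn5, at 1.43 log2 units (SE 0.48, unadjusted p = 0.00835, adjusted p = 0.342), and Icam2, at 1.12 (SE 0.41, unadjusted p = 0.0135, adjusted p = 0.368), had an unadjusted p of at most 0.05 on the higher side, as 5.54% of all genes did. The diet effect on these genes was therefore not shown to differ between the tissues.

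Lung exceeded liver by far for nearly all of these genes. On CS 9 of 10 were called higher in the lung, as were 37% of all genes, and on PS 9 of 10, as were 38% of all genes. The ranges did not overlap, with the lung above, for 9 members on CS (38.8% of all genes) and 8 on PS (36.8%). Scaling between unlike tissues shifts all genes together. The median log2 fold change of all genes was 0.18 on both diets with TMM scaling, 0.30 and 0.34 with DESeq2's size factors, and 1.55 and 1.56 with total counts alone. The values below use TMM scaling across both tissues and are to be read against its shift of 0.18.

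Sele aside, the largest excess was in Icam2 and Cldn5. Icam2 averaged 3.14 ± 1.58 CPM in CS livers (SD, n = 4) and 123 ± 5.58 CPM in CS lungs (SD, n = 3), a log2 fold change of 5.29 (SE 0.31). On PS the averages were 1.56 ± 0.456 and 135 ± 28.2 CPM, a log2 fold change of 6.41 (SE 0.30). Cldn5 averaged 13.1 ± 2.99 CPM in CS livers and 430 ± 135 CPM in CS lungs, with a log2 fold change of 5.03 (SE 0.38), and it reached 6.46 (SE 0.37) on PS. These 2 genes thus stood 32.8 to 88.0 times higher in the lung.

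Pecam1 and Cdh5 followed. Pecam1 had a log2 fold change of 4.78 (SE 0.36) on CS and 5.22 (SE 0.33) on PS, and Cdh5 had 4.55 (SE 0.31) and 5.24 (SE 0.30). Icam1, at 4.19 (SE 0.23) and 4.13 (SE 0.21), was nearly the same on both diets, and Esam was at 3.53 (SE 0.30) and 4.26 (SE 0.29). Vcam1, at 2.23 (SE 0.26) and 1.84 (SE 0.24), and Jam2, at 2.07 (SE 0.22) and 1.71 (SE 0.21), had the smallest excess of the called genes other than Sele. The adjusted p-values of these 8 genes lay between 2.4e-11 and 3.9e-06.

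The selectins stood apart from this pattern. Sele had 67 counts in the CS lungs and 0 in the CS livers. Against a floor of 3 counts over these 4 livers it was at least 9.90-fold higher in the lung. On PS it had 21 counts in the lungs and 1 in the livers, with a log2 fold change of 3.22 (SE 1.31, adjusted p = 0.0427), which DESeq2's Wald test (adjusted p = 0.0579) and the fit with mouse as a block (adjusted p = 0.24) did not call. The call was also lost without any 1 of 8 libraries, namely the PS livers of replicates 1, 2, 3 and 4, the CS lungs of replicates 2 and 3 and the PS lungs of replicates 1 and 3. The estimate ran from 2.34 without the PS lung of replicate 1 to 5.23 without the PS liver of replicate 5. Selp was the only member not called. It had 34 to 46 counts in each CS lung and 17 to 47 in each CS liver, and 17 to 55 in each PS lung and 5 to 30 in each PS liver. With TMM scaling its log2 fold change was -1.27 (SE 0.58, adjusted p = 0.0617) on CS and -0.60 (SE 0.55, adjusted p = 0.35) on PS. Without the CS liver of replicate 3 or the PS liver of replicate 1 it was called lower on CS, with adjusted p-values of 0.0358 and 0.0412. The sign turned with total counts alone, to 0.11 on CS and 0.73 on PS, so no direction between the tissues is given for Selp.

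**Figure D4:**
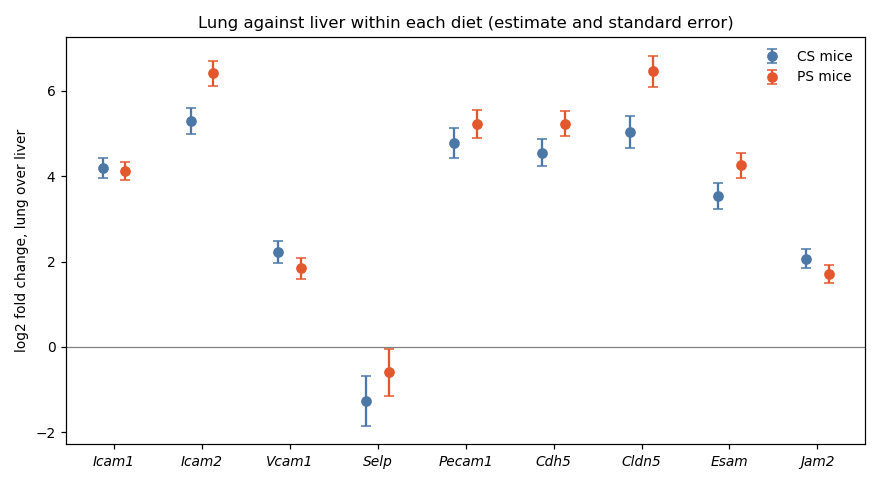
Log2 fold change of lung over liver for 9 members (points, with the standard error), CS mice in blue and PS mice in red, from the fit of all 15 libraries with TMM scaling. The other 8 members lie at 1.71 or above on both diets, and Selp lies below 0 with this scaling; Sele is left out because its liver counts were 0 on CS and 1 on PS.

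Each gene was also set against the 12 endothelial markers of its own library and compared between the lung and liver of the same mouse. The markers were themselves higher in the lung, 12 of 12 called on each diet, with median log2 fold changes of 3.81 on CS and 4.57 on PS. Relative to the markers, 4 members were higher in the lung in 6 of 6 mice. Cldn5 was higher by 1.71 ± 0.736 log2 units (SD, n = 6 mice), Icam2 by 1.66 ± 0.709, Pecam1 by 0.76 ± 0.301 and Cdh5 by 0.75 ± 0.506. Selp, at -5.07 ± 1.18, Jam2, at -2.32 ± 0.534, and Vcam1, at -2.07 ± 0.675 log2 units, were lower in the lung in 6 of 6 mice. For each of these 7 genes the two-sided exact sign-flip permutation p was 0.0312, unadjusted and the smallest that 6 mice can give. Of all genes tested, 2.73% were above 0 in all 6 mice and 84.9% were below 0 in all 6, so on this scale to lie below the markers was usual. Icam1, at 0.07 ± 0.647, was above 0 in 3 mice and below in 3, and Esam, at -0.16 ± 0.291, above in 2 and below in 4, so both tracked the markers within their spread. The result is a ratio to 12 markers and shows unequal change, not a level per cell.

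**Figure D5:**
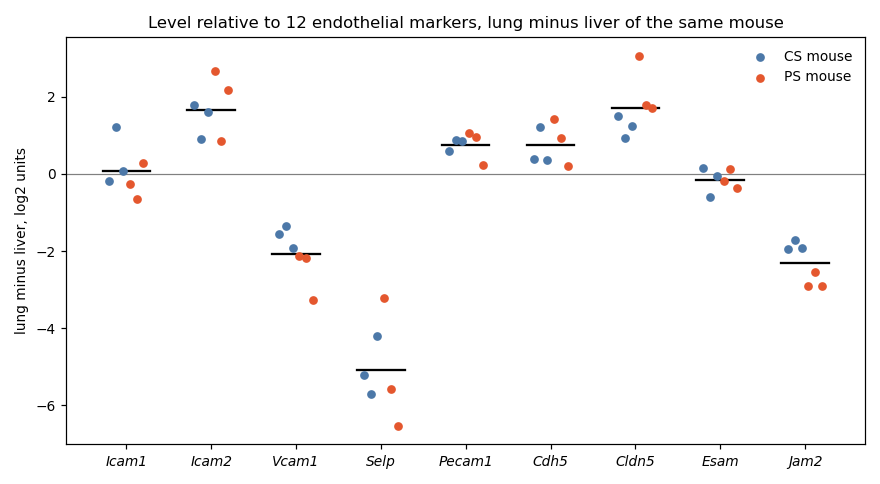
Level of 9 members relative to the mean of 12 endothelial markers, lung minus liver of the same mouse in log2 units (points, 3 CS mice in blue and 3 PS mice in red; line, mean of 6). Cldn5, Icam2, Pecam1 and Cdh5 lie above 0 in all 6 mice, Selp, Jam2 and Vcam1 lie below 0 in all 6, and Icam1 and Esam lie on both sides.

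Genes that work with the members were read from 5 lists. In the liver 0 genes of any of these lists were called. Of 11 leukocyte counter-receptors, the molecules on leukocytes that bind the members, 10 had estimates below 0, with a median log2 fold change of -0.40. Among them, Selplg (the P-selectin ligand) was at -0.70, Cd44 at -0.55 and Itgb2 at -0.40. The other vessel wall ligands (8 tested) were divided, 4 above and 4 below 0, with Nectin2 at -0.63 (SE 0.15, adjusted p = 0.227), Alcam at 0.41, Podxl at -0.88 and Mcam at -0.66. Of 12 junction partners, 8 were below 0, with Ctnnd1 at 0.57, Cgn at -0.38 and Ptprb at -0.40. Among 7 tested inducing cytokines and receptors, Il1b was at -1.74 (SE 0.54, adjusted p = 0.411) and Il1r1, a receptor for it, at 1.30 (SE 0.51), with Il1a at -0.73 and Il4ra at -0.24. Of 13 transcription factors, 9 were below 0, with Relb at -0.78, Nfkbia at 0.48, Klf2 at -0.51 and Irf1 at 0.32.

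In the lung 5 of the 55 tested genes of these lists were called, or 9.09%, close to the 9.22% of all genes. Ctnnb1 (beta-catenin), which links Cdh5 to the cytoskeleton, fell by 1.04 on the log2 scale (SE 0.21, adjusted p = 0.0288). Ctnnd1 (p120-catenin), which binds the same cadherin, rose by 0.54 (SE 0.13, adjusted p = 0.0417). Sox17, a transcription factor of arterial endothelium, rose by 0.89 (SE 0.17, adjusted p = 0.0255) and Gata2 by 0.74 (SE 0.19, adjusted p = 0.0447). Alcam, an adhesion molecule that binds CD6 on T cells, fell by 0.60 on the log2 scale (SE 0.14, adjusted p = 0.0398). All 5 calls were lost without any 1 of the CS lungs or without the PS lung of replicate 2, with the same signs and adjusted p-values up to 0.159, and that of Gata2 also without the PS lung of replicate 3. By list, 1 of 12 junction partners rose and 1 fell, 2 of 13 transcription factors rose, and 1 of 9 tested vessel wall ligands fell. The medians of these 3 lists were -0.26, 0.27 and -0.13, against 0.01 over all genes. Of the genes not called, Ocln was at -0.55, Ptprb at -0.66, Tnfaip3 at -1.02, Sox18 at 0.42, Cd99l2 at -0.62, Cd47 at 0.42 and Podxl at -0.31. The 11 counter-receptors (median -0.18) and 10 tested cytokines and receptors (median 0.16) held no called gene. Among them were Itgax at 0.56, Itgb1 at -0.43 and Itgb7 at 0.31, and Il1r1 at 0.33, Tnfrsf1b at -0.42, Ifngr1 at 0.17 and Tnf at 0.58.

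The genes whose pattern over the libraries was most like the mean pattern of the members were sought by the root mean square difference of z-scored log2 CPM. Over the 9 livers they were Tgfb1 (0.338), Sirpa (0.360), Oxct1 (0.394), Elk3 (0.397) and Gpr182 (0.404), where the median gene was at 1.16. Gpr182 is a receptor known from sinusoidal endothelium. The mean member pattern itself was highest in the CS livers of replicates 2 and 1, at z-scores of 0.881 and 0.732, and lowest in the PS livers of replicates 1 and 3, at -0.929 and -0.905. Within the group, Cdh5 (0.421) and Pecam1 (0.446) lay closest to the mean pattern and Icam1 (1.14) farthest. Over the 6 lungs the most alike genes were Mybpc3 (0.400), Nostrin (0.406), Mrps33 (0.411), Dtd2 (0.414) and Fabp3 (0.414), where the median gene was at 1.02. With 6 libraries such likeness is weak, and Nostrin is the only one of these 5 known from endothelium.

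Some counts may include reads of other genes, since the strand setting of the counting is not given in the sources used here. Exons of Icam1 share 511 bases with Gm47079, those of Vcam1 61 bases with Gm43109, and those of Selp 438 bases with Gm16548 and 186 with Gm16587, all on the opposite strand. Gm47079 and Gm16548 were also the only near-identical copies found among the transcripts, over 511 bases of Icam1 and 325 bases of Selp.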

How the data were processed

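Per the labels, RNA of frozen liver and lung tissue was sequenced from C57BL/6J mice (poly-A libraries). The authors aligned reads with HISAT2 2.0.5 and counted them per gene with featureCounts 1.5.0-p3 on mm10, and deposited raw counts. The authors also deposited FPKM values, scaled by tissue. Depth limits Sele and Selp most.

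Counts were fitted with edgeR 4.0.16 (R 4.3.3; TMM, default filter on low counts, robust quasi-likelihood), within each tissue and, for both tissues, over 15 libraries in 4 groups. Levels relative to endothelial markers used log2(CPM + 0.1). The planned adjustment of these p-values over the 10 members was dropped. The alternatives were DESeq2 1.42.0, other filters and scalings, limma 3.58.1 on FPKM, blocks, removed trends and each library left out. Fits were tested on simulated data. Mice named in the labels pair the tissues (correlations of deviations -0.0463 to 0.115), and a mouse block was an alternative. P-values within a tissue measure the spread between mice. The fits of 15 libraries count the libraries as independent, although 6 mice gave both tissues. All members were named, with up to 4 genes of smallest p per list and diet comparison, except 2 list genes that are not reported here. Members and lists were chosen with earlier results of these data known. Intervals take the normal multiple of the SE for 95%, so they are somewhat narrow for so few libraries. Floors are 3 counts.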

Additional observations from a re-analysis of the deposited data

Results flagged for a closer look

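Among 18 sets of member levels in groups of 4 or 5 livers, 1 library was far from its group. The CS liver of replicate 2 held Icam2 at 3.91 CPM, and its gap to the next CS liver was 0.913 of the whole range of the group, above the limit of 0.829 for 4 samples. About 1 in 20 such groups is flagged by chance. The same library had the highest summed level of the 12 endothelial markers in its group, at 257 CPM, and its part in the Icam2 value was not tested.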

How the results depend on the processing

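In the liver 1 gene was called; DESeq2's Wald test called 163 genes, dropping the filter 26, a minimum of 10 counts everywhere 2, limma on FPKM 6 with a pseudocount of 1 and 4 with 0.1, and the replicate block 0, as did removal of the GC content or gene length trend (both chosen after seeing the data). Leaving out each library gave 0 to 65 genes, the highest without the CS liver of replicate 2. Of the members, DESeq2's Wald test called 1 in the liver and 1 in the lung, and no other alternative or left-out library called any. The members lower in PS livers at an unadjusted p of at most 0.05 numbered 2, or 1 with at least 10 counts, and 1 to 4 with a library left out. They numbered 1 without the CS liver of replicate 2 or the PS liver of replicate 1 or 2.

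In the lung DESeq2's Wald test called 3090 genes instead of 1542, and leaving out each library gave 0 to 2949, with 23, 26 and 0 without CS replicates 1, 2 and 3 and 2949 and 9 without PS replicates 1 and 2. The 1 member higher there became 0 with the replicate block and without the GC trend, and 0 to 1 with a library left out (0 without any CS lung or PS replicate 3). The 1 member lower became 0 without a filter and without the GC or length trend, and 0 to 2 with a library left out (0 without CS replicate 2 or 3 or PS replicate 2, 2 without PS replicate 1). The genes called for the difference between tissues, 4, became 228 with DESeq2's Wald test, 10 without a filter, 0 with the replicate block and 0 to 12 with a library left out, and the members at an unadjusted p of at most 0.05 there, 2, were 2 to 4, the 4 without the PS liver of replicate 5.

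Replicate numbers are not shared between diets by any stated link, and the correlations of same-numbered libraries ran from -0.226 to 0.0955. With the replicate block the lower liver members were again 2, Cldn5 and Cdh5 in place of Cldn5 and Icam2, and Vcam1 went from 0.26 to -0.01. In the lung the 1 lower member was then Sele in place of Jam2 (unadjusted p = 0.0479 and 0.0725). Of the named lung genes that were called, the replicate block lost Alcam and Ctnnd1 (adjusted p = 0.0610 and 0.0567), removal of the GC trend Kdr, Ramp2, Stab1, Alcam and Gata2 (0.0506 to 0.0714), removal of the length trend Kdr (0.0505) and limma on FPKM Kdr, Stab1, Ctnnd1 and Gata2 (0.0521 to 0.0578). Mice pair lung and liver; with that replicate block 9 members on CS and 8 on PS were called higher in the lung. Leaving out each library gave 9 and 8 to 9 called higher, with Selp called lower on CS in the 9 to 10 called in all. The levels relative to the markers gave 3 members in the liver and 7 between tissues at an exact unadjusted p of at most 0.05, also with a shorter marker list or a pseudocount of 0.5 CPM, 2 to 3 in the liver with a library left out, and 0 between tissues with a mouse left out, since 5 mice cannot reach that p. Low counts limit Sele in both tissues, and Selp and Icam2 in the liver.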

Other observations

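Markers of single vessel beds were read beside the members. Of 6 markers of liver sinusoids, 5 had estimates below 0 in PS livers (median log2 fold change -0.34) and 0 were called. In the lung Stab1, a scavenger receptor, rose in PS lungs by a log2 fold change of 0.96 (adjusted p = 0.0394), while the other 5 were not called. That call was lost without any 1 of the lungs other than the PS lung of replicate 1, with estimates from 0.78 to 1.17 over the 6 left-out lungs. Of 6 markers of lung capillaries and large vessels, all 6 were called higher in lung than in liver on each diet, with medians of 3.85 on CS and 4.43 on PS, and 0 were called between the diets in either tissue.

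Platelets also carry Selp. The 5 platelet markers summed to 2.47 to 7.26 CPM in the livers and to 73.8 to 147 CPM in the lungs, with Gp1bb at 0 in every library. The 4 tested platelet markers were called higher in the lung on both diets, and their part in the Selp level was not tested. The 4 globin genes, markers of red cells, summed to 79.5 to 388 CPM in the livers and 1497 to 3523 CPM in the lungs. The 7 markers of mesothelium and stroma summed to 73.5 to 163 CPM in the livers and 782 to 1474 CPM in the lungs, and 0 of them were called between the diets in either tissue.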
